A study of Mus musculus with 10 samples.

Results

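The aryl hydrocarbon receptor (AhR) pathway was examined in bEnd.3 cells through 6 genes, *Ahr*, *Arnt*, *Cyp1b1*, *Cyp1a1*, *Tiparp* and *Ahrr*, out of 27024 rows with a gene name. The set was built around *Cyp1b1*, which was picked out because its level was lower after StcE in these same samples, and the other 5 genes were added for their known place in the pathway. All 6 had a row of their own, and 5 reached the mean of at least 1 FPKM (fragments per kilobase, a unit that allows for gene length and sequencing depth) that was required for testing. *Cyp1a1* did not, at a mean of 0.930 FPKM over all samples. The question was whether *Cyp1b1* changed alone.

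bEnd.3 is an immortalised line of wild-type mouse brain endothelial cells, and StcE is a bacterial mucinase, a protease that cuts glycoproteins carrying dense mucin-type O-glycans. Cells received 5 nM StcE in growth medium for 16 h (n = 5, replicates 1, 2, 3, 5 and 6) or an equal volume of saline (n = 5, replicates 1, 2, 3, 4 and 5), with no enzymatically inactive StcE in this experiment. Poly-adenylated RNA was sequenced in bulk with strand-specific libraries, and the fragments recovered from the values numbered 22034085 to 29161448 per saline sample and 21974357 to 33311968 per StcE sample. The labels do not say whether replicates were separate cultures, so p-values measure only the spread between these samples, and a single cell line stands for brain endothelium.

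In the unliganded state AhR, a transcription factor of the bHLH-PAS family, rests in the cytoplasm with HSP90 and other chaperones. Ligands such as dioxins and tryptophan metabolites release it to the nucleus, where it pairs with ARNT and binds xenobiotic response elements. *Cyp1a1*, *Cyp1b1*, *Tiparp* and *Ahrr* are classical targets. CYP1A1 and CYP1B1 are cytochrome P450 enzymes that oxidise xenobiotics, oestrogens and AhR ligands themselves, and CYP1B1 is a prominent P450 of human brain microvessels. TIPARP, a mono-ADP-ribosyltransferase, and AHRR, the AhR repressor, both dampen the receptor in negative feedback.

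The sequences before the start sites of the AhR-induced genes that could be followed at testable levels are given here, since the results set *Cyp1b1* and *Tiparp* against each other. RefSeq windows (build GRCm38.p6) were found for 5 of the 6 genes, all but *Ahr*, and each covered the 250 bases before the RefSeq start. Capitals mark the core of the xenobiotic response element, GCGTG, or its reverse complement CACGC where the core lies on the opposite strand. The *Cyp1b1* window lies at chr17:79715062-79715311 on the minus strand, the *Tiparp* window at chr3:65528197-65528409 on the plus strand and the *Ahrr* window at chr13:74292332-74292581 on the minus strand, each written 5′ to 3′ along its gene. The last 37 bases of the *Tiparp* window were left out because GENCODE places them in the first exon.
Cyp1b1: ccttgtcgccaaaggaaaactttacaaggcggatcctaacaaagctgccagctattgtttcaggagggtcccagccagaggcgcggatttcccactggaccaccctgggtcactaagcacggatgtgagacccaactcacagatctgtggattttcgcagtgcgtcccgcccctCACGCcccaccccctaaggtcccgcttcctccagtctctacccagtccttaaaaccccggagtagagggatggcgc
Tiparp: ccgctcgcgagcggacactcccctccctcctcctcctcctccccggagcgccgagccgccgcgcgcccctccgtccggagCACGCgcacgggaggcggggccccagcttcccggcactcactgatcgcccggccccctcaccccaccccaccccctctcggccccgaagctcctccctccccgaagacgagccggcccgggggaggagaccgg
Ahrr: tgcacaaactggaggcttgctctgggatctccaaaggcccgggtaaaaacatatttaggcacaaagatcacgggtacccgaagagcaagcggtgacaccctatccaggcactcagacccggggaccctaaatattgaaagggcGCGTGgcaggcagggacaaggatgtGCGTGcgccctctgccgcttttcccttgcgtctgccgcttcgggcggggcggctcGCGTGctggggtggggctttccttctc

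*Cyp1b1* had 1 core match, on the opposite strand at 76 to 72 bases before the start. *Tiparp* also had 1, on the opposite strand at 170 to 166 bases before the RefSeq start, a distance that includes the 37 bases not printed. *Ahrr* had 3 on its own strand, the nearest at 27 to 23 bases, and this was the sole match among the 5 windows to the longer form TNGCGTG, which contains the core. *Arnt* and *Cyp1a1* had 1 core match each. The core was searched on both strands and is common: 28.2% of all 32851 windows of this length held it (9250 windows), and 4.1% held TNGCGTG (1347 windows). A match describes the letters alone, and the distal elements through which AhR is known to act on *Cyp1a1* lie outside such windows.

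In FPKM, which is scaled per length, *Tiparp* was the highest of the 6 genes in saline, followed by *Arnt*, *Cyp1b1*, *Ahr*, *Ahrr* and *Cyp1a1*. Neighbours in this order did not overlap over the saline samples, except *Cyp1b1* with *Ahr* and *Ahrr* with *Cyp1a1*. After StcE the places of *Cyp1b1* and *Ahr* were exchanged, and no neighbours overlapped. *Cyp1b1* exceeded *Ahr* in 4 of 5 saline samples and in 0 of 5 StcE samples. The lengths behind these values were unlike: 1 transcript for *Cyp1b1* (5128 bases, against 5840 for all its exons) and all exons for the others. With all its exons *Cyp1b1* would stand lower in every sample. The number of saline samples in which it exceeded *Ahr* depends on this choice of length, and its mean in saline would be about level with that of *Ahr*. After StcE, its lack of overlap with *Ahrr* depends on the same choice.

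**Figure D1:**
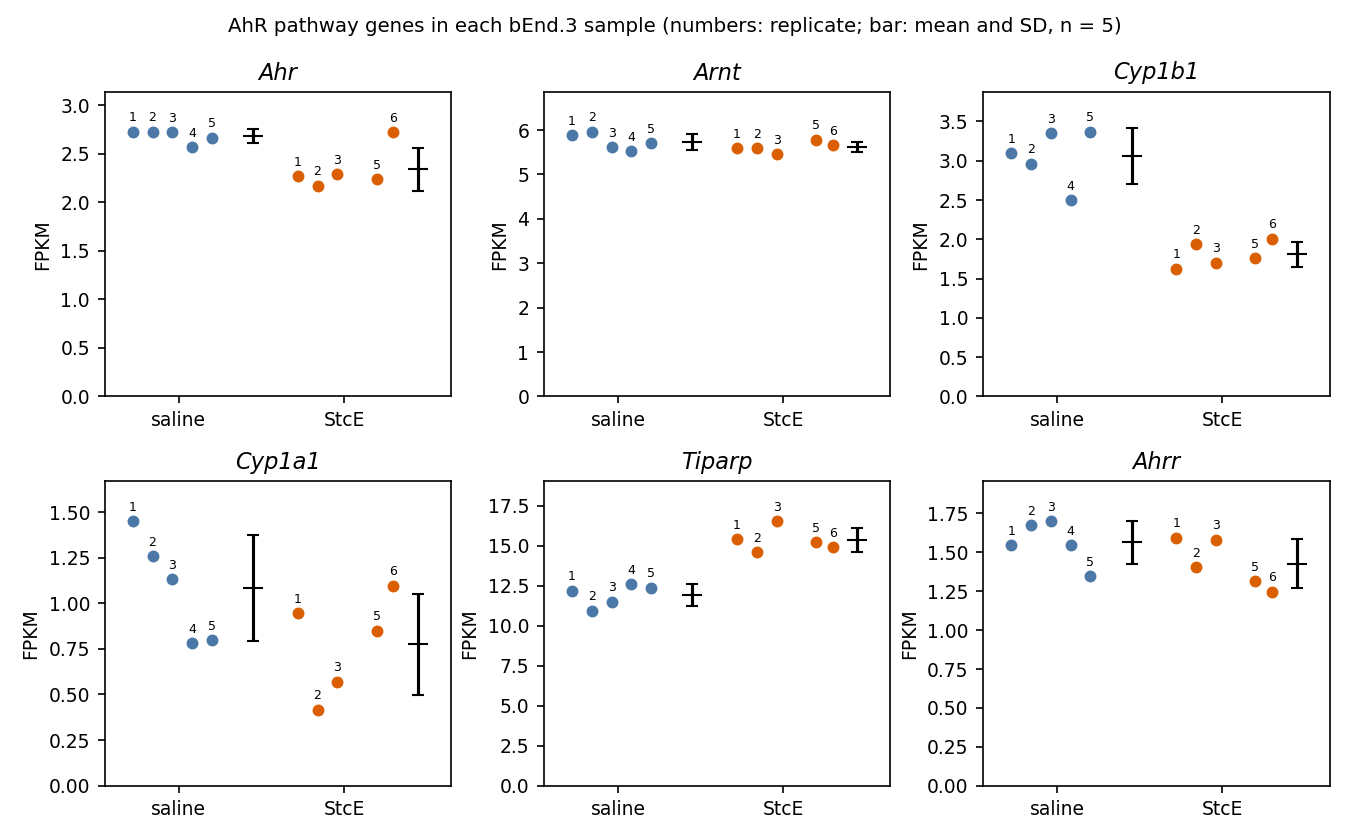
FPKM of the 6 AhR pathway genes (vertical axes from 0, a scale for each gene) in each saline (blue) and StcE (orange) sample, with replicate numbers and, in black, the mean and SD of 5 samples. The groups stand apart for *Cyp1b1* (lower after StcE) and *Tiparp* (higher), StcE replicate 6 of *Ahr* lies with the saline samples at 2.72 FPKM, and the groups overlap for *Arnt*, *Cyp1a1* and *Ahrr*.

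*Cyp1b1* (chromosome 17, 79701537 to 79715061, minus strand, GRCm38) is given as a description with no test, because its fall in this contrast chose it. Its FPKM in saline replicates 1 to 5 was 3.10, 2.96, 3.35, 2.50 and 3.37. In StcE replicates 1, 2, 3, 5 and 6 it was 1.62, 1.94, 1.70, 1.76 and 2.01. The groups did not overlap, and the lowest saline sample (replicate 4) was still above the highest StcE sample (replicate 6).

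The mean of *Cyp1b1* was 3.06 ± 0.356 FPKM (SD, n = 5) in saline and 1.81 ± 0.162 FPKM (SD, n = 5) after StcE, 40.9% lower. The values rested on 294 to 483 fragments per saline sample and 196 to 316 per StcE sample. On the log2(FPKM + 1) scale the difference was -0.53, whereas the log2 ratio of the mean FPKM was -0.76, since the added 1 shrinks the change of a gene at this level. Among the 11062 genes tested, this difference ranked 14 from the lowest. In a bulk sample, fewer cells expressing a gene and less RNA per cell cannot be told apart.

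*Tiparp* (chromosome 3, 65528410 to 65555518, plus strand), the other AhR-induced gene expressed at a clear level, differed in the opposite direction. Its FPKM in saline replicates 1 to 5 was 12.2, 10.9, 11.5, 12.6 and 12.4. In StcE replicates 1, 2, 3, 5 and 6 it was 15.4, 14.6, 16.5, 15.2 and 14.9. No StcE sample came within the saline range, which ended at 12.6.

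The mean of *Tiparp* rose from 11.9 ± 0.683 to 15.3 ± 0.745 FPKM (SD, n = 5 each), 28.7% higher. The difference in log2(FPKM + 1) was 0.34 (SE 0.0421, 95% interval 0.25 to 0.43, adjusted p = 0.000461 by limma with Benjamini-Hochberg adjustment over all genes tested). An exact two-sided permutation of the samples gave p = 0.00794, the smallest it can give. *Tiparp* was called in all 19 alternative settings tried, at differences of 0.31 to 0.38. By size it ranked 144 from the highest of 11062 genes. A gene on the opposite strand, 4931440P22Rik, overlaps 5.12% of the *Tiparp* exons, and its listed values of 0.237 to 0.412 FPKM were small beside those of *Tiparp*.

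As a ratio within each sample, *Tiparp* stood at 3.95 times *Cyp1b1* in saline (range 3.42 to 5.04) and at 8.55 times after StcE (range 7.41 to 9.70). This contrast joins a gene chosen for its fall with a gene that rose, so it describes these genes alone. Whether AhR activity lay behind either change was not tested.

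*Ahr* (chromosome 12, 35497974 to 35535038, minus strand) encodes the receptor. Its FPKM in saline replicates 1 to 5 was 2.73, 2.73, 2.72, 2.57 and 2.66. In StcE replicates 1, 2, 3, 5 and 6 it was 2.27, 2.17, 2.29, 2.24 and 2.72. In StcE, 4 of 5 samples lay below every saline sample, and replicate 6 lay inside the saline range.

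The mean of *Ahr* was 2.68 ± 0.0686 FPKM in saline and 2.34 ± 0.219 FPKM after StcE (SD, n = 5 each). The difference of -0.14 in log2(FPKM + 1) (SE 0.0462, 95% interval -0.24 to -0.043) did not pass the adjusted test (limma, adjusted p = 0.0662), although the exact permutation test of this gene by itself gave p = 0.0238. Without StcE replicate 6 the difference was -0.18 and passed (limma, adjusted p = 0.00975). *Ahr* also passed in 4 other of the 19 alternatives, and its difference was negative in all of them. The counted fragments numbered 329 to 511 per sample.

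*Arnt* (chromosome 3, 95434388 to 95497240, plus strand), the nuclear partner of the receptor, had the smallest difference of the pathway genes tested. It ranged from 5.52 to 5.96 FPKM in saline and from 5.46 to 5.79 FPKM after StcE, and the groups overlapped. The means were 5.74 ± 0.184 and 5.62 ± 0.119 FPKM (SD, n = 5 each). The difference of -0.025 in log2(FPKM + 1) had a 95% interval of -0.087 to 0.037 (limma, adjusted p = 0.615, exact permutation p = 0.270), so a change of the size seen for *Tiparp* lay outside the interval. The ratio of *Arnt* to *Ahr* was 2.14 in saline (range 2.06 to 2.19) and 2.42 after StcE (range 2.08 to 2.59).

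*Ahrr* (chromosome 13, 74211118 to 74292331, minus strand), the feedback repressor, was low in both groups. It ranged from 1.35 to 1.70 FPKM in saline and from 1.25 to 1.59 FPKM after StcE. Its means were 1.56 ± 0.141 and 1.43 ± 0.156 FPKM (SD, n = 5 each), a difference of -0.079 in log2(FPKM + 1) with a 95% interval of -0.21 to 0.048 (limma, adjusted p = 0.413, exact permutation p = 0.198). *Ahrr* is induced by AhR as *Cyp1b1* and *Tiparp* are. Its interval did not contain the *Tiparp* difference of 0.34, although the added 1 shrinks a change more at the lower level of *Ahrr*. The *Cyp1b1* difference is not set against this interval, because its fall chose it.

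*Cyp1a1* (chromosome 9, 57687928 to 57703824, plus strand), the most widely used readout of AhR activity, was the lowest of the 6 genes. Its FPKM in saline replicates 1 to 5 was 1.45, 1.26, 1.13, 0.782 and 0.797. In StcE replicates 1, 2, 3, 5 and 6 it was 0.946, 0.415, 0.569, 0.850 and 1.10. In StcE, 2 of 5 samples lay below every saline sample and the rest were inside the saline range.

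The means of *Cyp1a1* were 1.08 ± 0.292 and 0.775 ± 0.278 FPKM (SD, n = 5 each), from 32 to 123 fragments per sample. The SD came to 26.9% of the mean in saline and 35.9% after StcE, against 11.6% and 8.97% for *Cyp1b1*. The difference of -0.23 in log2(FPKM + 1) did not exceed the spread between replicates (p = 0.151, exact two-sided permutation of the samples), and the log2 ratio of the mean FPKM was -0.48. *Cyp1b1* stood at 2.97 times *Cyp1a1* in saline (range 2.13 to 4.23) and at 2.66 times after StcE (range 1.72 to 4.67), so the ratio of these P450 genes overlapped between groups. These samples did not settle whether *Cyp1a1* shared the lower level of *Cyp1b1*.

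**Figure D2:**
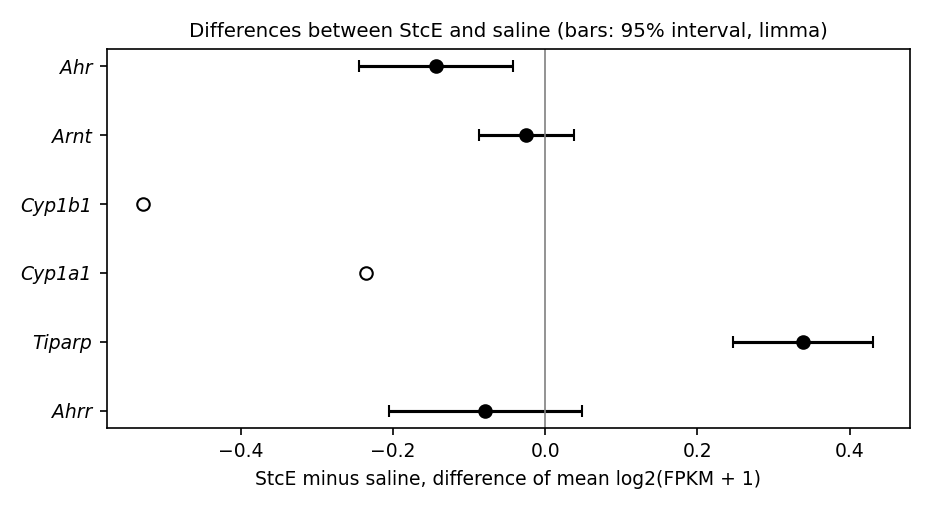
Difference between StcE and saline for the 6 genes in mean log2(FPKM + 1) (horizontal axis), with limma's 95% interval as bars for the 4 genes tested. Open circles are *Cyp1b1* (-0.53), which was chosen by this value, and *Cyp1a1* (-0.23), which was under the filter. *Tiparp* alone lies to the right of 0, and the intervals of *Arnt* and *Ahrr* cross it.

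Of the 4 genes tested other than *Cyp1b1*, 1 was called higher (*Tiparp*) and 0 were called lower by limma at an adjusted p under 0.05. At an unadjusted p under 0.05, and under voom on recovered fragments, *Ahr* was the sole gene of the 4 to pass as lower. By limma, 3071 of the 11062 genes tested had an unadjusted p under 0.05. The tested genes as a whole gave 11.9% called (1320 of 11062), 6.41% lower (709) and 5.52% higher (611), and in 10.7% of them (1179) the saline and StcE samples did not overlap. With 4 genes, such a count cannot be set apart from the background.

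Variation among samples of the same group was also described. After each group's mean was subtracted, log2(FPKM + 1) of *Cyp1a1* ran with *Ahr* (r = 0.65) and *Arnt* (r = 0.62) over the 10 samples, and *Cyp1b1* with *Ahr* at r = 0.44. *Cyp1b1* and *Cyp1a1* gave r = 0.13, and *Tiparp* gave r = -0.58 with *Arnt*, -0.41 with *Cyp1b1* and -0.048 with *Ahrr*. *Cyp1b1* and *Ahrr* gave r = -0.41. These coefficients come from 10 libraries whose genes share depth and scaling, and the lowest counts are noisy. In StcE replicate 6, the sample with the highest *Ahr* of its group, *Cyp1b1* and *Cyp1a1* were also the highest and *Ahrr* was the lowest.

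For the proteins that hold the receptor or act with it, the count of calls was near the background. Of 12 chaperone and coactivator genes, all tested, 0 were called by limma (11.9% over all genes). By limma, 3 had an unadjusted p under 0.05 (3071 of 11062 over all genes), and voom called 1 (1503 of 10498). The median difference was -0.018 in log2(FPKM + 1), beside -0.00066 over all genes tested. *Hsp90ab1*, a subunit of the HSP90 chaperone and the most highly expressed of them, had 1177 ± 29.8 FPKM in saline and 1173 ± 20.1 FPKM after StcE (SD, n = 5 each). The lowest differences were those of the coactivator genes *Ncoa1* (-0.15, limma adjusted p = 0.0933) and *Ncoa2* (-0.12, adjusted p = 0.179), which were named after their values were seen, and each passed in 1 of 19 alternatives.

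Other genes known to be induced by AhR were mostly under the filter in this line. Of 12, 4 passed the filter, and *Cyp1a2* and *Aldh3a1*, which are induced mainly in liver and epithelia, were at 0.0408 FPKM or less in every sample. Of the 4 tested, 1 was called lower (6.41% over all genes) and 0 higher (5.52%), too few to set apart from the background. The called gene was *Nfe2l2*, which encodes the antioxidant regulator NRF2. It fell from 32.1 ± 0.626 to 28.1 ± 1.06 FPKM (log2 difference -0.19, SE 0.0278, limma adjusted p = 0.00167). *Nqo1*, a quinone reductase shared between AhR and NRF2, had 39.1 ± 2.46 and 40.9 ± 3.36 FPKM (adjusted p = 0.532).

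ARNT is also the partner of the hypoxia-inducible factors, so other bHLH-PAS genes and HIF targets were examined. Of 13 bHLH-PAS genes, 5 passed the filter and 1 was called, a count too small to set apart from the 11.9% over all genes. *Epas1*, which encodes the endothelial factor HIF-2α and was the highest of the list, fell from 61.8 ± 4.08 to 47.8 ± 3.88 FPKM (log2 difference -0.36, SE 0.0584, limma adjusted p = 0.00246), without overlap between groups. With the replicate number as a block on 8 samples its adjusted p was 0.0505. *Hif1a*, for HIF-1α, had 39.7 ± 0.850 and 41.3 ± 1.41 FPKM (adjusted p = 0.20).

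Among 18 HIF targets, 17 were tested, of which 6 were called higher and 1 lower (41.2% called, against 11.9% of all genes). The 7 calls became 4 with no filter, 4 on the 8 samples that share replicate numbers and 1 on those samples with the replicate block. The median difference of the list was 0.075 in log2(FPKM + 1). *Bhlhe40*, a transcriptional repressor, rose from 10.3 ± 0.389 to 12.8 ± 0.605 FPKM (0.28, limma adjusted p = 0.000481). *Bnip3*, a mitophagy receptor, differed by 0.24 (adjusted p = 0.0377) and *Vegfa*, the vascular growth factor, by 0.21 (adjusted p = 0.00288). *Ndrg1*, a stress-responsive gene, fell from 1.84 ± 0.224 to 1.34 ± 0.143 FPKM (-0.28, adjusted p = 0.0178). *Egln3*, a prolyl hydroxylase, *Kdm3a*, a histone demethylase, and *Ldha*, lactate dehydrogenase, rose by 0.12 to 0.14. *Pgk1*, a glycolytic enzyme and the highest of the list, had 634 ± 17.5 and 668 ± 14.9 FPKM (adjusted p = 0.0800). Of these calls *Bnip3* was kept in 8 and *Kdm3a* in 9 of 19 alternatives, and *Bhlhe40* in all 19.

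**Figure D3:**
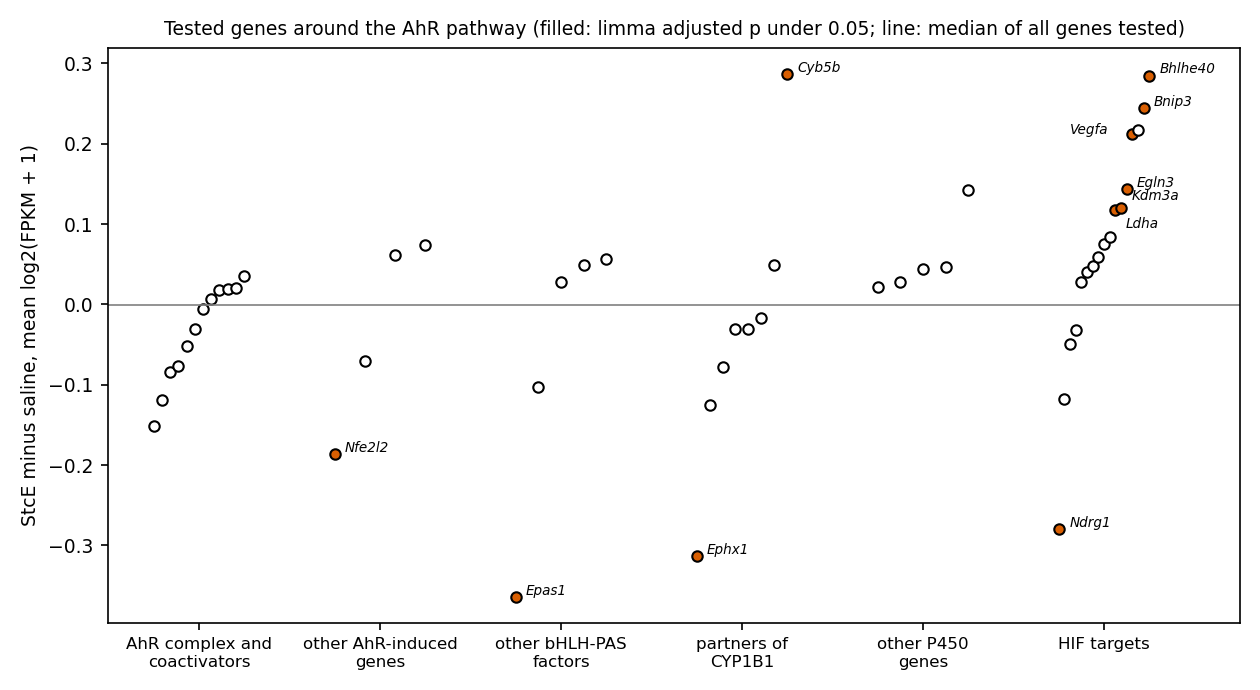
Difference between StcE and saline in mean log2(FPKM + 1) (vertical axis) for each tested gene of 6 lists around the AhR pathway, ordered by size within a list. Filled points passed an adjusted p under 0.05 by limma and are named, open points did not, and the grey line is the median of all genes tested (-0.00066). The lists hold 0, 1, 1, 2, 0 and 7 filled points from left to right.

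The enzymes that work beside CYP1B1 held a call in each direction. Of 9 genes for electron supply and for handling of its products, 8 were tested, 1 was called lower (6.41% over all genes) and 1 higher (5.52%), with a median of -0.031, and with 8 genes this count cannot be set apart from the background. *Ephx1*, microsomal epoxide hydrolase and the highest of this list in saline, fell from 166 ± 5.85 to 134 ± 2.86 FPKM (log2 difference -0.31, SE 0.0270, limma adjusted p = 2.5e-05). *Cyb5b*, an outer mitochondrial membrane cytochrome b5, rose from 84.1 ± 1.33 to 103 ± 2.72 FPKM (0.29, SE 0.0231, adjusted p = 1.4e-05). The groups did not overlap for either gene, and both calls were kept in all 19 alternatives. *Por*, the reductase that passes electrons to microsomal P450 enzymes, had 58.4 ± 2.13 and 57.1 ± 1.89 FPKM (adjusted p = 0.562).

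Among P450 genes named by family number, subfamily letter and gene number, 41 further genes had a row and 5 passed the filter. Of these, 0 were called by limma, 0 had an unadjusted p under 0.05 (3071 of 11062 over all genes) and 0 were called by voom. *Cyp20a1*, an orphan P450, had 22.9 ± 1.06 and 23.3 ± 0.899 FPKM (adjusted p = 0.660). *Cyp4f16* (7.39 and 7.67 FPKM, adjusted p = 0.539), *Cyp4f17* (5.23 and 5.30 FPKM, adjusted p = 0.847) and *Cyp2j6* (4.15 and 4.32 FPKM, adjusted p = 0.556) differed by less than 0.05 in log2(FPKM + 1). *Cyp26b1*, which degrades retinoic acid, had 1.06 ± 0.186 and 1.27 ± 0.131 FPKM (0.14, adjusted p = 0.211). With 5 genes, 0 calls cannot be set apart from the 11.9% over all genes. *Cyp51*, the lanosterol demethylase of cholesterol synthesis, has no subfamily letter in its name and stood outside this list. It rose from 6.44 ± 0.507 to 21.1 ± 0.450 FPKM (log2 difference 1.57, limma adjusted p = 4.6e-10), and was named after its values were seen.

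The endothelial label was checked with 10 marker genes, which were all tested and summed to 1718 to 1861 FPKM per saline sample and 1627 to 1718 FPKM per StcE sample. *Cdh5* and *Cldn5*, which define endothelium and its tight junctions, had 509 and 310 FPKM in saline. Of the 10 markers, 6 were called lower (*Tie1*, *Tek*, *Flt1*, *Pecam1*, *Erg* and *Esam*), beside 6.41% of all genes, and their part in the differences above was not tested. *Tie1*, *Tek* and *Flt1* kept their call in 18 of 19 alternatives, *Pecam1* and *Erg* in 5 and *Esam* in 2.

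CYP1B1 is known in pericytes and fibroblasts too. The 5 pericyte markers with a row summed to 0.283 to 0.425 FPKM in saline and 0.257 to 0.319 FPKM after StcE, and *Rgs5* had no row. The fibroblast markers summed to 1.21 to 1.43 and 1.20 to 1.54 FPKM, nearly all of it *Pdgfra* (1.18 and 1.29 FPKM, adjusted p = 0.438 by limma), with *Dcn* at 0.00747 FPKM or less and no row for *Lum*. The smooth muscle markers summed to 2.54 to 5.99 and 3.17 to 5.00 FPKM, mainly *Acta2* (3.08 and 3.19 FPKM, adjusted p = 0.845), and the leukocyte, glial and neuronal markers to 0.0971 to 0.213 and 0.121 to 0.281 FPKM.

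The genes whose values ran closest to *Cyp1b1* over the 10 samples were *Sertad4*, *Jag2* and *Atoh8*. *Sertad4* is a gene of the SERTA domain family, and its log2(FPKM + 1) gave r = 0.98 with *Cyp1b1* (rho = 0.95). *Jag2*, a Notch ligand, gave r = 0.98 (rho = 0.96) and *Atoh8*, a bHLH transcription factor, r = 0.97 (rho = 0.88). Without the 2 samples whose *Cyp1b1* lay farthest from the median, the coefficients were 0.97, 0.99 and 0.97. The samples form separate groups for all of these genes, so the pooled values partly restate the difference between groups.

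After each group's mean was subtracted, *Sertad4* was again closest (r = 0.94, rho = 0.88), followed by *Ankrd28* (r = 0.92, rho = 0.82) and *Tcf7* (r = 0.90, rho = 0.81). *Sertad4* had 5.18, 5.05, 5.62, 4.39 and 5.40 FPKM in saline replicates 1 to 5 and 3.82, 3.98, 3.91, 3.79 and 4.37 FPKM in StcE replicates 1, 2, 3, 5 and 6. In both genes saline replicate 4 was the lowest of its group and StcE replicate 6 the highest. *Ankrd28* had 13.7 ± 0.599 and 13.8 ± 0.428 FPKM (limma, adjusted p = 0.768), so its likeness was among samples of the same group. The ranking covered all 11062 tested genes, and the highest of many coefficients is large by selection.

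**Figure D4:**
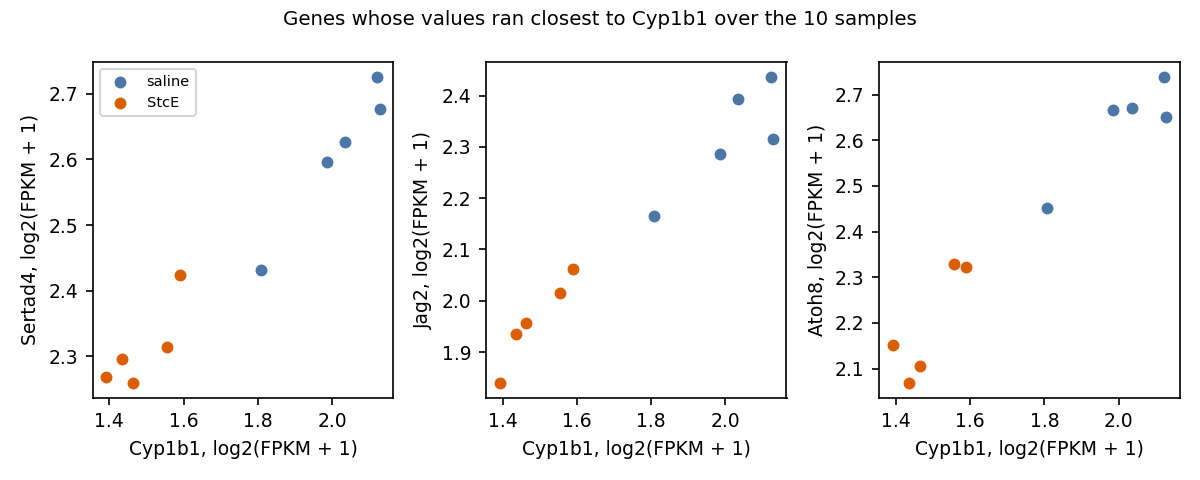
log2(FPKM + 1) of *Sertad4*, *Jag2* and *Atoh8* (vertical axes) against that of *Cyp1b1* (horizontal axes) in the 5 saline (blue) and 5 StcE (orange) samples, 1 point per sample. The StcE samples lie lower left of the saline samples in each panel, and within a group the points also run broadly upward to the right.

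*Tiparp* ran with other genes. As measured, the closest were *Dync1i1*, a dynein intermediate chain (r = 0.97, rho = 0.98), *Zfand2a*, an arsenite- and heat-inducible zinc-finger gene (r = 0.97, rho = 0.95), and *Ttc9* (r = 0.97, rho = 0.92). All rose after StcE, by 0.25, 0.22 and 0.23 in log2(FPKM + 1) (limma, adjusted p = 0.00426, 0.00170 and 0.000801). With the group means subtracted they were *Faap24* (r = 0.96, rho = 0.94), *Slc9a3r1* (r = 0.92, rho = 0.93) and *Cox11* (r = 0.90, rho = 0.87), whose differences between groups did not pass (limma, adjusted p = 0.361 to 0.888).

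For *Ahr* the closest genes as measured were *Casd1*, a sialic acid O-acetyltransferase (r = 0.96, rho = 0.95), *Cplx2* (r = 0.94, rho = 0.76) and *Smpdl3a* (r = 0.94, rho = 0.78). *Smpdl3a* was called lower (-0.27, limma adjusted p = 0.00894). With the group means subtracted they were *Slc26a11* (r = 0.94, rho = 0.87), *Dgat1* (r = 0.94, rho = 0.88) and *Nnat* (r = 0.92, rho = 0.75), and without the 2 samples farthest from the median these coefficients dropped to 0.71, 0.77 and 0.69.

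**Figure D5:**
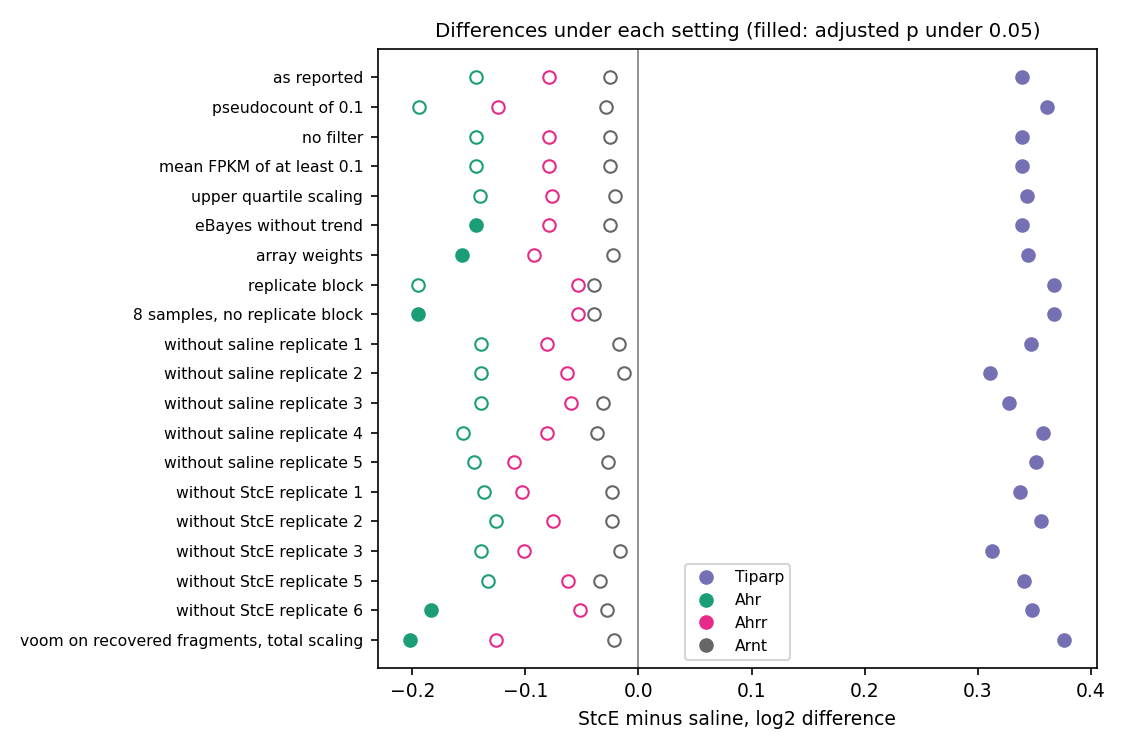
Difference between StcE and saline (horizontal axis, log2 scale) for *Tiparp*, *Ahr*, *Ahrr* and *Arnt* under the reported settings (top line) and each of the 19 alternatives, with filled points for an adjusted p under 0.05. *Tiparp* is filled throughout at 0.31 to 0.38, *Ahr* is filled in 5 alternatives, and *Ahrr* and *Arnt* in 0.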

How the data were processed

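RNA-seq of 5 saline and 5 StcE samples of bEnd.3 cells was analysed from a table in which the authors deposited FPKM values, with 1 column per sample. The authors aligned trimmed read pairs to GRCm38 (mm10). The submitters' processing notes name HISAT2 2.0.5, featureCounts 1.5.0-p3 and DESeq2 1.32.0. The annotation release and the strand setting of the counting are not given in the sources used here. Rows without a gene name (22874) were empty, 12 names stood on more than 1 row, and 0 columns belonged to no sample.

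Because the deposited values are FPKM, limma 3.58.1 in R 4.3.3 (lmFit, eBayes with trend) was used on log2(FPKM + 1) in place of the authors' count model, with treatment as the sole term. The 11062 genes averaging 1 FPKM or more were tested with Benjamini-Hochberg adjustment, at a threshold of 0.05. For single genes, samples were also permuted exactly (two-sided). Intervals are 95%. The code was tested on simulated data.

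FPKM multiplied by GENCODE vM21 exon length gave whole fragments for 96.4% of values above 0 (tolerance 0.02 fragments), which sets the depth. *Cyp1b1* was whole with the length of 1 transcript (5128 bases) and not with all its exons (5840 bases). BLAST 2.17.0 was used to look for stretches of 150 bases or more with 95% or higher identity in other genes' transcripts. *Tiparp* had such a match in 4931440P22Rik over 21.2% of a transcript. That gene overlaps *Tiparp* exons on the opposite strand and both strands were searched, so the match need not be a copy elsewhere. Exons of *Ahr* overlapped those of Gm48236 on the opposite strand over 2.06%.

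The 6 genes, the gene lists and the tests were chosen with earlier results of these data known, so no list is independent evidence. Genes named are the 6, up to 4 called genes per list with the largest differences plus its highest gene, every tested P450 gene of the list, and the 3 genes most like *Cyp1b1*, *Tiparp* and *Ahr* by Pearson r, with and without subtraction of group means, passing over names that begin with Gm and a number or end in Rik. *Nqo1*, *Hif1a*, *Por*, *Cyp1a2*, *Aldh3a1*, *Egln3*, *Kdm3a*, *Ldha*, *Ncoa1*, *Ncoa2* and *Cyp51* fall outside this rule and were named after their values were seen. For 1 list, the highest gene is not reported here. P450 genes were taken by the name form Cyp, digits, letter, digits. Alternatives were a pseudocount of 0.1, no filter, a mean FPKM of at least 0.1, upper quartile scaling, eBayes without trend, array weights, a replicate block, the 8 samples of that fit without the block, and each sample left out. After seeing the data, voom on the recovered fragments of 10498 genes was added.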

Additional observations from a re-analysis of the deposited data

Results flagged for a closer look

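*Ahr* in StcE replicate 6 stood at 2.72 FPKM, far from the other 4 StcE samples (2.17 to 2.29 FPKM). Its gap to the nearest of them was 0.789 of the range of the group, above Dixon's 95% critical value of 0.71. The 6 genes gave 12 groups of 5 samples to examine, and chance alone marks about 1 group in 20. The sample held 23870246 recovered fragments, within the range of the others. Without it, *Ahr* was called lower (difference of -0.18 in log2(FPKM + 1), limma adjusted p = 0.00975).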

How the results depend on the processing

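*Tiparp* was called in all 19 alternatives (0.31 to 0.38, adjusted p = 1.6e-05 to 0.0104), *Ahrr* and *Arnt* in 0 of 19 and *Cyp1a1* in 0 of the 17 that gave it a test (not the replicate block or voom), and 0 results reversed. The *Cyp1b1* difference was -0.72 with a pseudocount of 0.1, -0.75 by voom and -0.58 to -0.50 with a sample left out. Besides *Tiparp*, *Ahr* was called, making 2 genes, by eBayes without trend (-0.14, adjusted p = 0.0489), array weights (-0.16, 0.0359), the 8 samples without the block (-0.19, 0.0142), voom (-0.20, 0.0364) and without StcE replicate 6 (-0.18, 0.00975). With a sample left out, *Ahr* ranged from -0.18 to -0.13 (adjusted p = 0.00975 to 0.133) and the genes called from 1 to 2.

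The limma calls over all genes numbered 801 with no filter (409 lower, 392 higher), and 793 to 1255 with a sample left out (409 to 667 lower, 384 to 588 higher), fewest without StcE replicate 3 (793) and saline replicate 1 (838). HIF targets called fell from 7 to 4 with no filter and were 5 to 8 with a sample left out. For the chaperone and coactivator list it was 0 to 1, with *Ncoa2* called without StcE replicate 6 (adjusted p = 0.0288) and *Ncoa1* under voom, 1 call. The bHLH-PAS list had 0 calls under voom, where *Epas1* was not among the genes with whole fragments.

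The labels do not say whether samples with a shared replicate number (1, 2, 3 and 5) were handled together. Deviations of same-numbered samples from their group means correlated at -0.097 to 0.054 over the tested genes, which does not settle it. With the replicate block on 8 samples, 349 genes were called (162 lower, 187 higher), against 452 lower without the block. HIF calls were 1 with the replicate block and 4 on the 8 samples without it, and bHLH-PAS calls were 0 with it (*Epas1*, adjusted p = 0.0505). Where the cause of a change is not given, the cause was not tested. *Cyp1a1* rested on the fewest fragments of the 6 genes, 32 to 123 per sample.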
